A study of Mus musculus with 20 samples.

Results

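H3K4me1, monomethylation of lysine 4 on histone H3, was compared between WT Lin- bone marrow cells and Lin- cells deficient in both p300 and Tet2. The deposited H3K4me1 peak lists of the genotypes labelled WT and p300 Tet2 Knockout were merged into 123849 regions. A region was called lost when no peak of the double-deficient list overlapped it by 1 bp, and gained when no WT peak did. All other regions were called retained. By this rule 36007 regions were lost, which is 35.8% of the 100628 regions with a WT peak (exact Clopper-Pearson 95% interval 35.5% to 36.1%). In the other direction 23221 regions were gained, which is 26.4% of the 87842 regions with a double-deficient peak (26.1% to 26.7%), and 64621 regions were retained. The H3K4me1 lists of all 4 genotypes merged to 136457 regions, and the 12 peak lists of the series, over 3 histone marks, to 132114.

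The WT mice carried floxed Ep300 alleles without Cre. The double-deficient mice (Ep300Δ/ΔTet2-/-) carried Mx1-Cre, floxed Ep300 and homozygous Tet2 deletion. The p300 Knockout mice (Ep300Δ/Δ) carried Mx1-Cre and floxed Ep300, and the Tet2 Knockout mice (Tet2-/-) carried the floxed Ep300 alleles without Cre on the Tet2-null background. All were C57BL/6 animals that received poly(I:C), which induces interferon and through it the Mx1 promoter, at 6 to 8 weeks of age. Mx1-Cre acts in many interferon-responsive cells besides blood cells, and Tet2 was absent from the germline on. Because WT and Tet2-/- mice had no Cre, loss of p300 and presence of Cre cannot be told apart. Each genotype and mark had 1 library, so no difference below has a replicate check. The intervals cover counting error only and no p-value was computed. How many animals each library pooled is not given in the sources used here.

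p300, encoded by Ep300, is a histone acetyltransferase that acetylates lysine 27 of histone H3 at enhancers and promoters. Tet2 oxidizes methylated cytosine in DNA and is often mutated in myeloid neoplasms. H3K4me1 is written mainly by the MLL3 and MLL4 methyltransferases and marks enhancers, whether they are active or only primed. Active enhancers also carry H3K27ac, and active promoters carry H3K4me3. In blood formation, stem cells and each lineage use their own enhancers, and a peak list of mixed progenitors holds the enhancers of many cell types together.

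The label of the cells was checked against marker genes. All 10 progenitor marker genes, among them Kit, Cd34, Gata2 and Runx1, had an H3K4me1 peak in all 4 lists. Of 8 genes taken as markers of the lineages removed by the depletion, 6 also had peaks in all 4 lists, while Cd3e and Cd8a had none. Peaks given to these 8 genes numbered 97 in WT, 80 in Ep300Δ/Δ, 89 in Tet2-/- and 78 in Ep300Δ/ΔTet2-/- cells. Of these, 40, 29, 36 and 33 were given to Ptprc, which is not limited to the removed lineages. Of 10 genes of liver, muscle, pancreas, skin, lung and nerve, 6 had none in any list. The part that remaining mature cells play in the results was not tested. In these bulk cells, fewer cells of a type and less of the mark per cell cannot be told apart. Total reads are not in peak lists, so depth is unknown, and the lists differed in length, with 107392 peaks in WT, 90738 in Ep300Δ/Δ, 98069 in Tet2-/- and 93465 in Ep300Δ/ΔTet2-/- cells.

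Stretches of 151 bases around the summits of 6 changed regions show the kind of sequence that the classes hold. They are the strongest region of each class by fold enrichment, and the strongest lost regions near Vcam1 and Ear6 and gained regions near Meis1 and Prdm16, all taken where the stretch holds no exon. The bases come from the GRCm38 reference, plus strand. Capitals mark a match, on either strand, to 1 of 10 short letter motifs searched. The stretch of the lost region nearest to Creb5, chr6:53446458-53446608, lay in an intron. The stretch near Vcam1 was chr3:116163521-116163671, in an intron of a long non-coding RNA gene, and that near Ear6 was the intergenic chr14:51865273-51865423. The gained stretches were chr14:103651723-103651873 at the Slain1 promoter, chr11:18964617-18964767 in an intron of Meis1 and chr4:154497257-154497407 in an intron of Prdm16.
Creb5, lost: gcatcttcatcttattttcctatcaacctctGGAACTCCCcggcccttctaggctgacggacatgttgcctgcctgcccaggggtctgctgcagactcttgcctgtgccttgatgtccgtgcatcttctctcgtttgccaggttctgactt
Vcam1, lost: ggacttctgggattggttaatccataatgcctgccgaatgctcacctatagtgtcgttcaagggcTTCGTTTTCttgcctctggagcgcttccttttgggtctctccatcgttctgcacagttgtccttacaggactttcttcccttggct
Ear6, lost: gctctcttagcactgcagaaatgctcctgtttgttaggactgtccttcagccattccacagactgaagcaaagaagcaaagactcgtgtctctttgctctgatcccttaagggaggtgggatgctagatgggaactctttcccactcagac
Slain1, gained: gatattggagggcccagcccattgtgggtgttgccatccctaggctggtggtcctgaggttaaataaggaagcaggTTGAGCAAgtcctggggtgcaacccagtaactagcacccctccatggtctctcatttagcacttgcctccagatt
Meis1, gained: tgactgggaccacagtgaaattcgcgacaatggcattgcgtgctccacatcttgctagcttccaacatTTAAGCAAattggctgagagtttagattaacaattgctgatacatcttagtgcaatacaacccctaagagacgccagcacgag
Prdm16, gained: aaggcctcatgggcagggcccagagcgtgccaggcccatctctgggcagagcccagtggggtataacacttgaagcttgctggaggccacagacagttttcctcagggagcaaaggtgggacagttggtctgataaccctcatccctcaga
The capitals mark an NF-kB match near Creb5, an IRF match near Vcam1 and CEBP matches near Slain1 and Meis1, while the stretches near Ear6 and Prdm16 held none of the 10 motifs.

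The changed regions were short and weak by the standards of their own lists. Lost regions had a median width of 304 bp and gained regions of 300 bp, against 683 bp for retained regions. The median fold enrichment over histone H3 was 4.02 for lost regions in the WT list, where retained regions had 5.04. Gained regions had 4.15 in the double-deficient list, where retained regions had 5.08. In bases, lost regions held 13.01 Mb of the WT list and gained regions 8.15 Mb of the double-deficient list, while retained regions held 51.87 Mb in WT and 49.98 Mb in double-deficient cells. Of lost regions 3.31% lay within 100 bp of a double-deficient peak and 31.6% within 500 bp. Of gained regions 3.63% lay within 100 bp of a WT peak and 30.8% within 500 bp. When peaks within 500 bp of each other were joined, 19414 regions were lost and 14012 gained. Of 54482 retained regions with 1 peak in each list, 136 shared at most 50 bp.

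Strong regions were changed less often than weak ones. In the quartile of WT regions with the lowest fold enrichment 51.9% were lost, followed by 45.7%, 32.9% and 12.6% in the next quartiles. Gained shares followed the same order of strength, with 39.0%, 34.1%, 23.9% and 8.66% of double-deficient regions. Even so, 3161 regions of the strongest WT quartile were lost and 1901 regions of the strongest double-deficient quartile were gained.

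**Figure D1:**
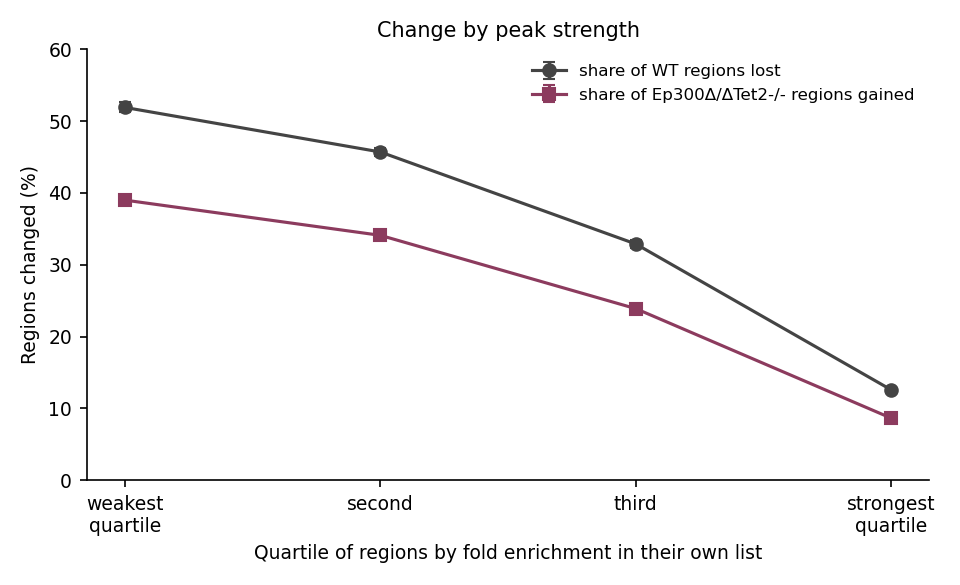
Share of H3K4me1 regions changed (y axis, %) by quartile of fold enrichment in the region's own list (x axis), with exact 95% counting intervals that are mostly hidden by the points. WT regions lost run from 51.9% in the weakest quartile to 12.6% in the strongest, and double-deficient regions gained from 39.0% to 8.66%.

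With all deposited peaks there were 1.55 lost regions for each gained region. When every list was cut to its 90738 strongest peaks, 27139 regions were lost and 27456 gained, a ratio of 0.99. A ratio near 1 follows from the equal lengths themselves, so this cut does not show whether loss exceeds gain. With peaks of −log10 q of at least 5 in every list the ratio was 1.71. This cut left 64950 peaks in WT, 40812 in Ep300Δ/Δ, 74532 in Tet2-/- and 53254 in double-deficient cells. List lengths thus differed here too, and their part in this ratio and in gene counts at this threshold was not tested.

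Loss and gain were next followed into the single knockouts. Most losses were already seen in 1 or both single lists. Of the lost regions, 24882 (69.1%, interval 68.6% to 69.6%) had no peak in the Ep300Δ/Δ list and 19729 (54.8%, 54.3% to 55.3%) none in the Tet2-/- list. Both shares stood above the same shares of retained regions, which were 16.7% and 11.0%. A total of 15300 lost regions were absent from both single lists, 9582 from the Ep300Δ/Δ list only and 4429 from the Tet2-/- list only. The other 6696 lost regions (18.6%) had a peak in both single lists and were missing only in the double-deficient list. By comparison, 7769 retained regions were missing only in the Ep300Δ/Δ list and 4120 only in the Tet2-/- list. Absence from 1 list alone was thus not particular to double-deficient cells.

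Like retained regions, gained regions were found more often in the Tet2-/- list than in the Ep300Δ/Δ list. Of them, 11192 (48.2%, interval 47.6% to 48.8%) had a peak in the Tet2-/- list and 9249 (39.8%, 39.2% to 40.5%) in the Ep300Δ/Δ list. Both single lists held 5795 gained regions, the Tet2-/- list alone 5397 and the Ep300Δ/Δ list alone 3454. Neither single list held the other 8575 (36.9%), which were seen only in double-deficient cells. Thus 81.4% of losses and 63.1% of gains were seen in at least 1 single knockout. Of retained regions, 23.0% were absent from at least 1 single list and 95.4% present in at least 1, with 89.0% in the Tet2-/- list and 83.3% in the Ep300Δ/Δ list. Since the Ep300Δ/Δ list is the shortest, its absences were also read in lists of equal length. Lost regions were then absent from the Ep300Δ/Δ list in 65.0% and from the Tet2-/- list in 53.6%, and gained regions were present in 45.0% and 48.6%. Equal numbers of peaks do not make overlap equally likely. The deposited Tet2-/- list covered 69.8 Mb with a median width of 506 bp, and the Ep300Δ/Δ list 55.1 Mb with 433 bp. At equal length the lowest −log10 q was 2.99 in the Tet2-/- and 0.40 in the Ep300Δ/Δ list.

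**Figure D2:**
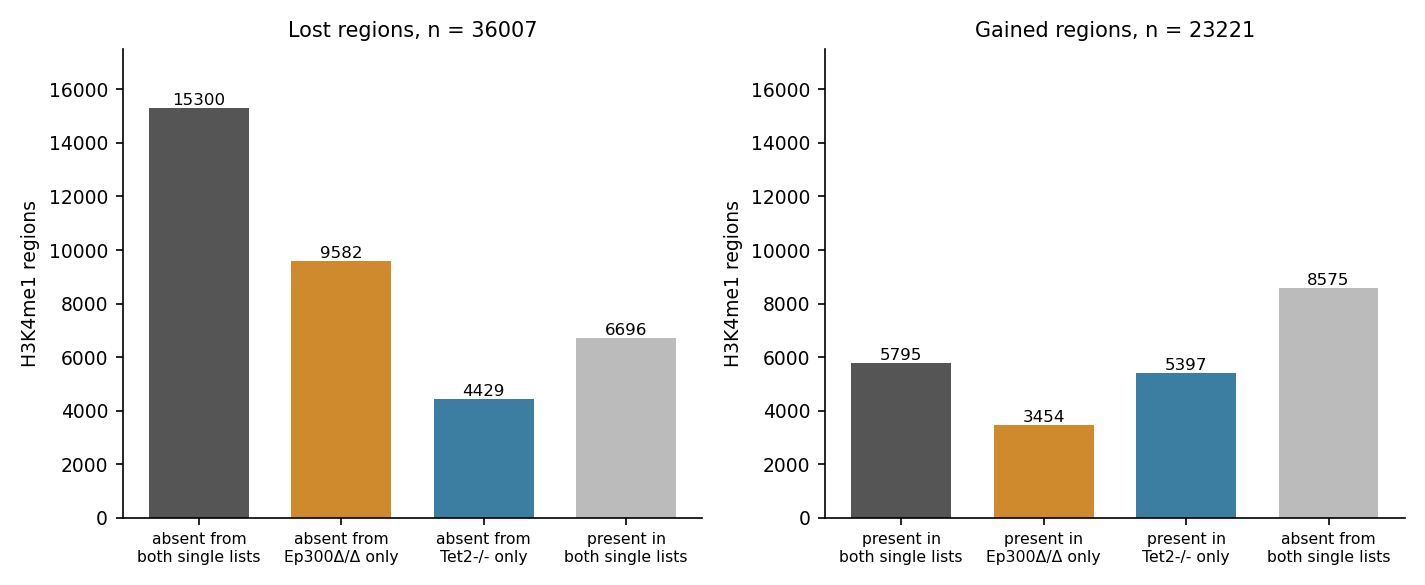
Numbers of lost (left) and gained (right) H3K4me1 regions (y axis) by their state in the 2 single-knockout lists (x axis). The tallest lost bar holds the 15300 regions absent from both single lists, and the tallest gained bar the 8575 regions absent from both.

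The shares were also read from the single lists forward. Of WT regions present in both single knockouts, 11.9% were lost in double-deficient cells (6696 of 56434). Among those absent only from the Ep300Δ/Δ list the share was 55.2% (9582 of 17351), and among those absent only from the Tet2-/- list 51.8% (4429 of 8549). Regions absent from both were lost in 83.6% (15300 of 18294). The remaining 2994 of these 18294 regions had a peak in WT and again in double-deficient cells. All these shares rest on the same WT and double-deficient libraries, so they are not independent of one another.

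The same shares were read within quartiles of fold enrichment, which do not make strength equal. Within the strongest WT quartile, lost regions were absent from the Ep300Δ/Δ list in 52.1% and retained regions in 7.13%. For the Tet2-/- list the shares were 29.7% and 3.54%. Within the weakest quartile the shares for the Ep300Δ/Δ list were 73.3% and 26.3%, and for the Tet2-/- list 61.0% and 19.9%. The 100 strongest lost regions were found in the Tet2-/- list in 89 cases and in the Ep300Δ/Δ list in 56, against 45.2% and 30.9% of all lost regions. Of the 100 strongest gained regions, 89 were in the Tet2-/- list and 79 in the Ep300Δ/Δ list, against 48.2% and 39.8% of all gained regions.

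The neighbouring comparisons are given side by side, with the same WT lists. H3K4me1 from WT to Ep300Δ/Δ lost 36.7% of regions and gained 24.1%. From WT to Tet2-/- it lost 28.6% and gained 26.8%. From WT to double-deficient cells, H3K27ac lost 48.9% and gained 13.9% of regions, and H3K4me3 lost 15.0% and gained 13.6%. H3K27ac thus had 5.91 lost regions for each gained region, where H3K4me1 had 1.55 and H3K4me3 1.12. The WT and double-deficient lists held 29659 and 18327 peaks for H3K27ac and 26289 and 27268 for H3K4me3, and the part of list length in these ratios was not tested.

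Most of the changed regions lay away from promoters. Within 3000 bp of an annotated transcript start lay 35.8% of lost, 40.0% of gained and 46.4% of retained regions. Introns held 35.9% of lost and 34.3% of gained regions and 19400 of the 64621 retained regions, and intergenic sequence held 23.2%, 21.9% and 18.4%. Seen from the list, 41.2% of intergenic, 40.0% of intronic and 30.1% of promoter WT regions were lost. Base composition was alike, with a median of 1.32 CpG dinucleotides per 100 bp in lost, 1.39 in gained and 1.41 in retained regions. The median distance to the nearest retained region was 1589 bp for lost, 2881 bp for gained and 717 bp between retained regions.

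Regions with an active mark were lost less often. Of distal WT regions with an H3K27ac peak in WT cells, 11.0% were lost (883 of 8006), while 44.7% of those without one were lost (22223 of 49737). The latter made up 61.7% of all losses. At promoters, 16.7% of regions with H3K4me3 and 41.1% of those without it were lost. Distal regions with H3K27ac were also stronger, with a median fold enrichment of 6.36 against 4.43. Within the strongest quartile of the WT list the distal shares were 4.20% and 19.2%. Gains followed the same order, with 9.79% of H3K27ac-marked and 30.2% of unmarked distal regions of the double-deficient list gained.

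H3K27ac was scarcer in double-deficient cells at lost regions and at retained regions. A WT H3K27ac peak lay on 6.64% of lost regions, and a double-deficient peak on 2.84%. The shares in the single lists were 3.19% in Ep300Δ/Δ and 4.34% in Tet2-/- cells. Retained regions had H3K27ac in 25.9% in WT, 16.7% in Ep300Δ/Δ, 20.6% in Tet2-/- and 14.8% in double-deficient cells. Of the 16755 retained regions with WT H3K27ac, 48.7% had it in double-deficient cells. Gained regions differed less between the genotypes. They carried H3K27ac in 8.29% in WT and 7.77% in double-deficient cells, and 70.0% of those with the WT peak had it in both.

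The background of all H3K27ac regions, of which 48.9% were lost, is the measure for these shares. Of the 2391 lost H3K4me1 regions with WT H3K27ac, 36.6% (875) had it in double-deficient cells too, which lay below the 48.7% of the 16755 retained and the 70.0% of the 1924 gained regions with WT H3K27ac. H3K4me3 moved less. It lay on 10.5% of lost regions in WT and 8.92% in double-deficient cells, and on 16.3% and 18.8% of gained regions. Among gained regions, 805 had H3K4me3 in double-deficient cells only and 219 in WT only.

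**Figure D3:**
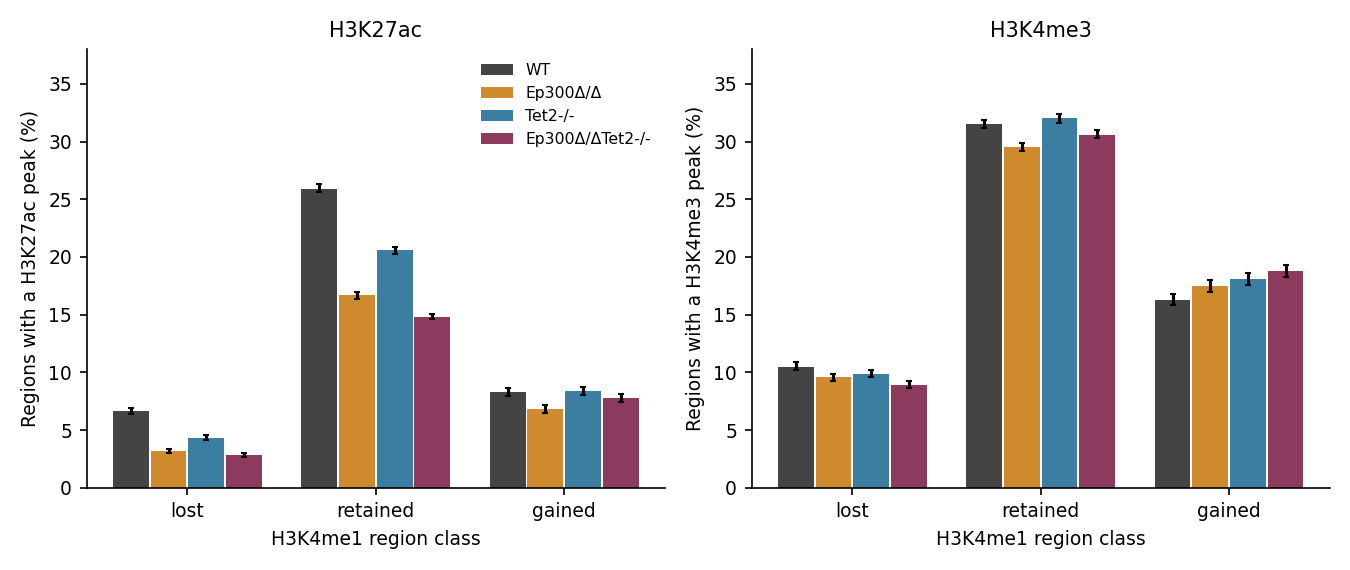
Share of lost, retained and gained H3K4me1 regions (x axis) that overlap an H3K27ac peak (left) or an H3K4me3 peak (right) in each of the 4 genotypes (y axis, %, bars from 0 with exact 95% counting intervals). H3K27ac on retained regions stands at 25.9% in WT and 14.8% in double-deficient cells, while on gained regions it stands at 8.29% and 7.77%.

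Regions were given to the protein-coding gene with the nearest transcript start, which does not show that they regulate it. In all, 15742 genes received a region. More regions were lost than gained at 44.2% of them (6957 genes) and more gained than lost at 29.5% (4647 genes). The other 4138 genes had as many lost as gained regions. Most of the 15742 genes had fewer than 10 regions, so lists whose genes hold more or fewer regions are not on a like basis with these shares. Both kinds of change occurred together at 6527 genes. Among 3722 genes with at least 10 regions, the median gene had 28.6% of its regions lost and 15.4% gained. Of the genes examined singly, 58 had more losses and 38 more gains. At a −log10 q of at least 5 the lead held at 54 and 30 of them, and with lists of equal length at 43 and 38.

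The targeted genes themselves gave no check of the deletions, because H3K4me1 peaks do not read the deleted exons. Ep300 had 9 peaks in WT, 12 in Ep300Δ/Δ, 12 in Tet2-/- and 9 in double-deficient cells. Tet2 had 35, 22, 29 and 27 peaks, and 14 of its regions were lost and 7 gained.

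Of the 16 gene lists, that of basophil, mast cell and eosinophil genes had the highest share of WT regions lost, and its interval lay above the share of all regions. It lost 77 of 169 regions (45.6%, interval 37.9% to 53.4%) against 35.8% of all regions, and 21 of 113 double-deficient regions (18.6%) were gained against 26.4% of all regions, a share that the exact interval of the gain includes. Regions of the same fold enrichment, over all genes, would have given 34.8% and 24.4%. With peaks of −log10 q of at least 5 the list lost 52.8% against 41.5% of all regions, and gained 28.2% against 29.4%. With lists of equal length it lost 39.9% (31.6% to 48.5%) against 31.9%, and with the nearest gene of any type 43.1% (33.9% to 52.6%) against 35.8%, so both intervals include the share of all regions. In the last setting erythroid genes, at 44.3%, stood above it. Losses outnumbered gains at 13 of its 17 genes with regions, against 44.2% of all genes. In the Ep300Δ/Δ list, 61 of the 77 lost regions were absent (79.2%, against 69.1% of all lost regions), and in the Tet2-/- list 32 were (41.6%, against 54.8%).

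Of this list, Prg2, Epx, Mcpt8 and Cpa3 were picked after their values were seen. Ear6, a ribonuclease of eosinophil granules that is named for its share of regions lost and is not in the list, had 10 peaks in WT, 0 in Ep300Δ/Δ, 6 in Tet2-/- and 1 in double-deficient cells. Its relatives lie close by and are similar in sequence, so reads that fit several of them were removed upstream. Prg2, the eosinophil major basic protein, had 12, 4, 7 and 5 peaks in the same order. Epx, eosinophil peroxidase, had 5, 0, 3 and 1. In all 3 eosinophil genes the WT and Tet2-/- lists held more peaks than the lists without p300. Il1rl1, the receptor for interleukin-33 on mast cells and eosinophils, had 24, 16, 14 and 11 peaks, so that all 3 deficient lists were below WT. Mcpt8, a basophil protease, and Cpa3, a mast cell carboxypeptidase, each had 4, 1, 4 and 1 peaks. At a −log10 q of at least 5 their counts were 1, 0, 4 and 0 for Mcpt8 and 0, 1, 3 and 0 for Cpa3, and with lists of equal length Cpa3 had 1, 1, 4 and 1, so a fall of Cpa3 from WT was seen in neither alternative. Hdc, which makes histamine, had 22, 14, 18 and 14. Mitf, a transcription factor of mast cells, went against the list with 19, 23, 22 and 19 peaks.

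Neutrophil granule genes lost 75 of 185 WT regions (40.5%, interval 33.4% to 48.0%) against 35.8% of all regions and gained 29 of 139 (20.9%, 14.4% to 28.6%) against 26.4%. Both intervals include the shares of all regions. Gfi1, a repressor needed for neutrophil formation, lost 21 and gained 3 regions, with 38, 20, 33 and 22 peaks in WT, Ep300Δ/Δ, Tet2-/- and double-deficient cells. Ly6g, the surface protein that the lineage depletion targets on neutrophils, had 11, 4, 9 and 2 peaks. At both genes the lists without p300 stood below both lists with it. Since mature neutrophils should have been depleted, Ly6g peaks can also read the cells that remained, and their part in the result was not tested.

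Genes of DNA replication and mitosis lost 65 of 151 regions (43.0%, interval 35.0% to 51.3%) against 35.8% of all regions, and gained 29 of 115 (25.2%, 17.6% to 34.2%) against 26.4%. Losses outnumbered gains at 20 of the 30 genes, against 44.2% of all genes. Mki67, a marker of dividing cells, had 21 peaks in WT, 12 in Ep300Δ/Δ, 20 in Tet2-/- and 15 in double-deficient cells. Rrm2, a subunit of ribonucleotide reductase, had 18, 13, 12 and 9 peaks, and Ccnb2, a mitotic cyclin, had 11, 9, 8 and 9. Both intervals include the shares of all regions.

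Stem cell and self-renewal factors lost a smaller share of regions than all genes together. They lost 213 of 771 WT regions (27.6%, interval 24.5% to 30.9%, against 35.8% of all regions and 34.6% at the same fold enrichment). They gained 231 of 789 double-deficient regions (29.3%, 26.1% to 32.6%, against 26.4% and 25.1%), and the interval includes the share of all regions. Gains outnumbered losses at 16 of the 30 genes, against 29.5% of all genes, and losses outnumbered gains at 9, against 44.2%. The 30 genes held 1002 regions, more per gene than all genes, so these shares are not on a like basis. Of the 231 gained regions, 125 were in the Tet2-/- list (54.1%, against 48.2% of all gained regions) and 100 in the Ep300Δ/Δ list (43.3%, against 39.8%). With peaks of −log10 q of at least 5, the list gained 27.7% against 29.4% of all regions and lost 30.2% against 41.5%. With lists of equal length it gained 36.0% against 32.1% and lost 23.6% against 31.9%. Its share of loss was thus below that of all regions in each of these lists, while its share of gain lay on either side.

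Several members of that list with more gains than losses were picked after their values were seen. Meis1, a homeodomain factor that maintains hematopoietic stem cells and leukemia cells (chromosome 11, 18879817 to 19018985), had 33 gained, 8 lost and 23 retained regions. Its peaks numbered 34 in WT, 50 in Ep300Δ/Δ, 44 in Tet2-/- and 58 in double-deficient cells, and they covered 16.3, 25.0, 26.4 and 30.9 kb. All 3 deficient lists lay above WT, and the double-deficient list was the highest. With peaks of −log10 q of at least 5 the counts were 13, 25, 32 and 32. The retained regions of Meis1 also ranked higher among retained regions in double-deficient than in WT cells, by a median of 36.7 percentile points. This was rank 7 of the 1643 genes with at least 10 retained regions.

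Prdm16 and Mecom encode related zinc finger proteins that preserve stem cells. Prdm16 had 9 peaks in WT, 14 in Ep300Δ/Δ, 20 in Tet2-/- and 23 in double-deficient cells, with 16 gained and 1 lost region. Of the 16 gained regions, 12 were in the Tet2-/- list and 7 in the Ep300Δ/Δ list. Mecom had 12, 12, 8 and 19 peaks, and covered 4.19, 5.66, 3.71 and 8.02 kb. With lists of equal length it had 8, 12, 6 and 19 peaks, and at a −log10 q of at least 5 it had 4, 4, 4 and 6, with 3 lost and 5 gained regions. Hlf had 10, 17, 14 and 13 peaks, and Msi2, an RNA-binding protein of stem cells, 48, 64, 48 and 58. At a −log10 q of at least 5 Hlf had 6, 3, 9 and 7, so that the Ep300Δ/Δ list was below WT.

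The members of the stem cell list with the most changed regions were Runx1, Etv6 and Myc. Runx1, a core factor of blood formation, lost 47 regions and gained 19, with 144, 126, 140 and 118 peaks. Etv6 lost 24 and gained 26, with 129, 128, 132 and 138 peaks. Myc, which drives growth and division, lost 29 and gained 16, with 48, 44, 43 and 35 peaks. At a −log10 q of at least 5, Myc lost 14 and gained 0.

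**Figure D4:**
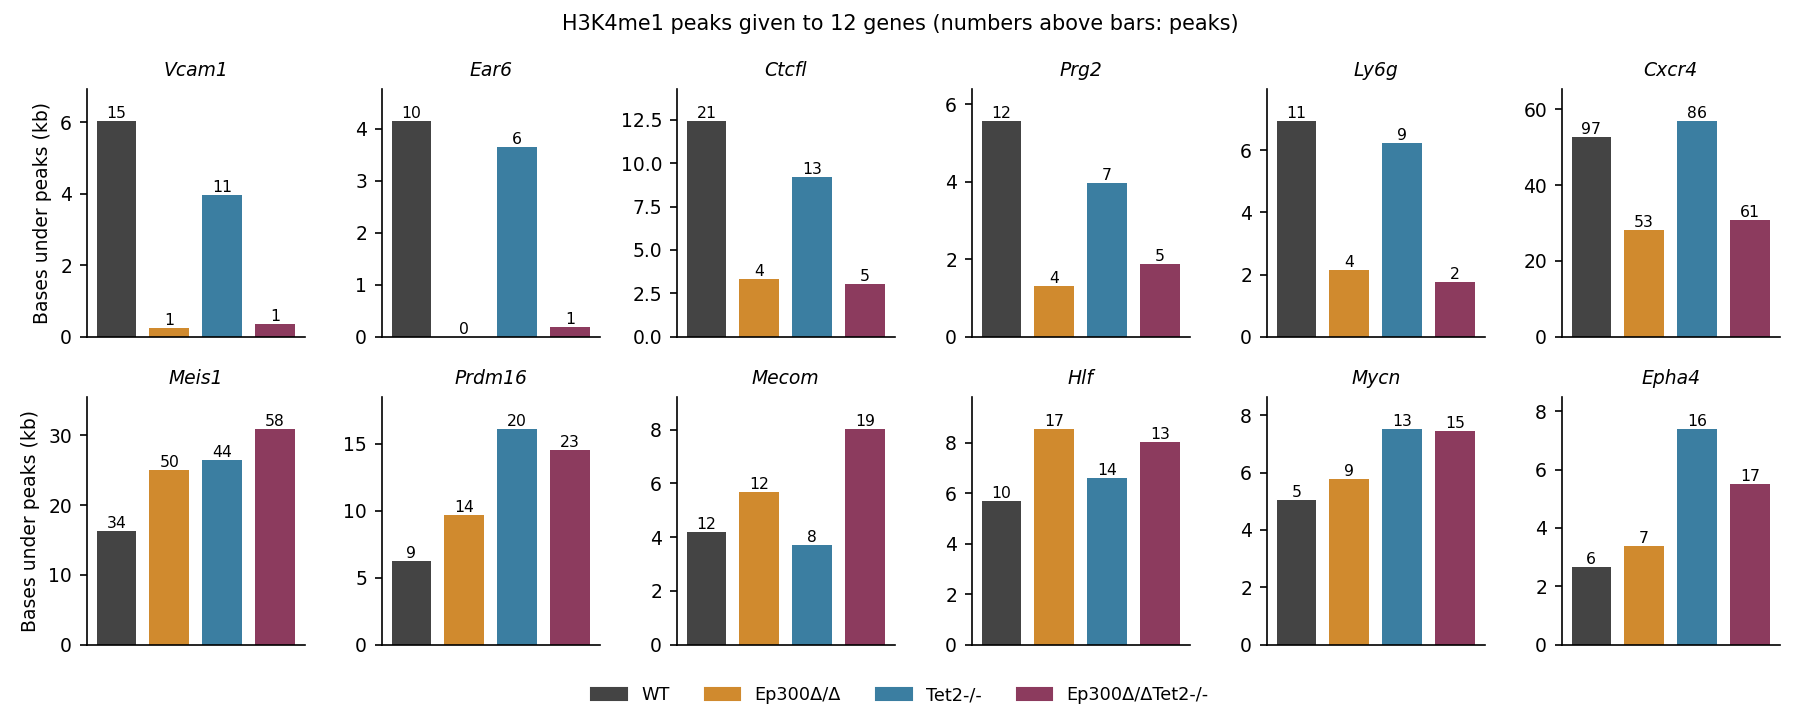
Bases under H3K4me1 peaks given to 12 genes (y axis, kb, each panel with its own scale from 0), with the number of peaks above each bar, in 1 library per genotype. Vcam1, Ear6, Ctcfl, Prg2, Ly6g and Cxcr4 have lower bars in both lists without p300 than in WT and Tet2-/-, and Meis1, Prdm16, Hlf, Mycn and Epha4 have higher bars in all 3 deficient lists than in WT, an order that at a −log10 q of at least 5 is lost in peak counts at Hlf and Epha4.

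The remaining lineage lists were mixed. Megakaryocyte genes lost 29.1% (interval 22.3% to 36.7%) and gained 31.2% (24.3% to 38.7%), and both intervals include the shares of all regions. Gains were ahead at 13 of 18 genes, against 29.5% of all genes. With the nearest gene of any type the list lost 20.6%, with an interval below the 35.8% of all regions, and at a −log10 q of at least 5 it lost 38.5% against 41.5% of all regions and gained 41.0% (31.3% to 51.3%) against 29.4%. Itgb3, the platelet integrin beta chain, gained 9 and lost 3 regions, but 5 and 5 at that threshold, and Rab27b, which acts in platelet granule release, gained 7 and lost 4. Thbs1, thrombospondin, went the other way, with 44, 27, 33 and 22 peaks, 23 lost and 2 gained regions. Erythroid genes lost 37.1% and gained 27.5%, with intervals (30.6% to 44.1% and 21.1% to 34.6%) that include the shares of all regions. With the nearest gene of any type they lost 44.3% against 35.8% of all regions (35.6% to 53.2%), and with peaks of −log10 q of at least 5 they lost 44.8% against 41.5% and gained 37.9% against 29.4% (28.5% to 48.0%), so that the intervals still include the share of all regions. Ank1, which encodes the ankyrin of the red cell membrane, had 22, 29, 13 and 13 peaks. Both Tet2-null lists were lower there than both Tet2-competent lists, but with peaks of −log10 q of at least 5 the counts were 6, 10, 9 and 4 and this order was gone. Bcl11a lost 16 and gained 15 regions and Car2 lost 6 and gained 7.

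Monocyte and dendritic genes lost 30.5% (26.1% to 35.1%), below the 35.8% of all regions, and gained 23.4% (19.2% to 27.9%), an interval that includes 26.4%. With the nearest gene of any type they lost 28.1% (22.3% to 34.4%), also below 35.8%. At a −log10 q of at least 5 they lost 36.8% (30.8% to 43.0%) against 41.5% of all regions. With lists of equal length they lost 28.8% (24.2% to 33.7%) against 31.9%. The last 2 intervals include the share of all regions. Id2, an inhibitor of basic helix-loop-helix factors, lost 33 and gained 9 regions with 100, 69, 92 and 72 peaks, while Zeb2 lost 23 and gained 17 and Tcf4 lost 8 and gained 13. B-lymphoid genes lost 33.0% and gained 22.0%, with intervals that include the shares of all regions. Bach2, a repressor in B cells, lost 26 and gained 12 regions, with 70, 54, 84 and 57 peaks, but lost 10 and gained 14 at a −log10 q of at least 5, Foxo1 lost 15 and gained 4, and Ikzf1 lost 8 and gained 2. T and NK genes lost 26.2% (18.0% to 35.8%) against 35.8% of all regions and gained 29.0% (20.6% to 38.5%) against 26.4%. Their most changed members were Cd28, which lost 5 and gained 4 regions, Gata3, which lost 3 and gained 6, and Cd2, which lost 3 and gained 4.

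Signalling lists gained few regions. Cytokine and chemokine receptors gained 18.6% (79 of 424, interval 15.0% to 22.7%), Notch receptors and targets 18.6% (59 of 318, 14.4% to 23.3%), AP-1 and immediate early genes 19.2% (14.8% to 24.2%) and NF-kB and inflammatory genes 19.5% (14.9% to 24.7%). All 4 intervals lay below 26.4%. Their losses were 34.2% (30.1% to 38.4%), 31.1% (26.5% to 36.1%), 26.5% (21.7% to 31.7%) and 29.4% (24.3% to 34.8%) against 35.8% of all regions, so the AP-1 and NF-kB lists lay below all regions in loss as well as in gain. Regions of the same fold enrichment would have given gains of 24.3%, 23.6%, 25.7% and 24.0% and losses of 33.2%, 33.9%, 34.1% and 32.4%. Both NF-kB intervals include the values at the same fold enrichment, and both AP-1 intervals lay below them. At a −log10 q of at least 5, NF-kB genes lost 34.9% (28.5% to 41.8%), which includes the 41.5% of all regions. AP-1 genes lost 28.1% (22.2% to 34.6%), below that share. With peaks of −log10 q of at least 5 the gains were 28.0%, 23.4%, 19.6% and 24.9% against 29.4% of all regions, and the interval of AP-1 genes (14.2% to 25.9%) lay below that share, while those of the cytokine receptors (22.8% to 33.8%), Notch genes (17.9% to 29.6%) and NF-kB genes (18.7% to 31.8%) included it. Interferon-stimulated genes lost 24.1% (20 of 83, interval 15.4% to 34.7%), below the 35.8% of all regions, and gained 19.2% (15 of 78, 11.2% to 29.7%), an interval that includes 26.4%. Ribosomal protein genes lost 34.1% and gained 23.9%, and genes of other tissues, with few regions, lost 12 of 49 and gained 17 of 54. The intervals of these last 2 lists include the shares of all regions.

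Cxcr4, the receptor that keeps progenitors in the marrow, lost 45 and gained 8 regions. It had 97 peaks in WT, 53 in Ep300Δ/Δ, 86 in Tet2-/- and 61 in double-deficient cells, which covered 52.8, 28.1, 56.8 and 30.9 kb. Of its 45 lost regions, 30 had a peak in the Tet2-/- list and 8 in the Ep300Δ/Δ list, where all lost regions had 45.2% and 30.9%. Kit, the stem cell factor receptor, lost 27 and gained 8 regions with 71, 51, 55 and 50 peaks, and Tgfbr2 lost 23 and gained 14. Hes1, a target of Notch, lost 24 and gained 5 with 50, 31, 35 and 35 peaks, Notch2 lost 18 and gained 1, and Maml3 lost 17 and gained 13. In the AP-1 list Klf6 lost 14 and gained 2 regions, with 24, 11, 20 and 12 peaks, Fos lost 8 and gained 3, and Jun lost 13 and gained 12. In the NF-kB list Nfkb1 lost 19 and gained 10 regions, Tnfaip3 lost 17 and gained 5, and Nfkbiz lost 9 and gained 5. The most changed interferon genes were Usp18, Ifih1 and Rsad2, with 5, 2 and 2 lost and 3, 2 and 2 gained regions. Among ribosomal protein genes, Rpl11 lost 3 and gained 4 regions, Rpl15 lost 3 and gained 3, and Rpl5 lost 6 and gained 0. Of the tissue genes, Scgb1a1 lost 6 and gained 3, Ttr lost 2 and gained 2 and Olig2 lost 1 and gained 2.

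**Figure D5:**
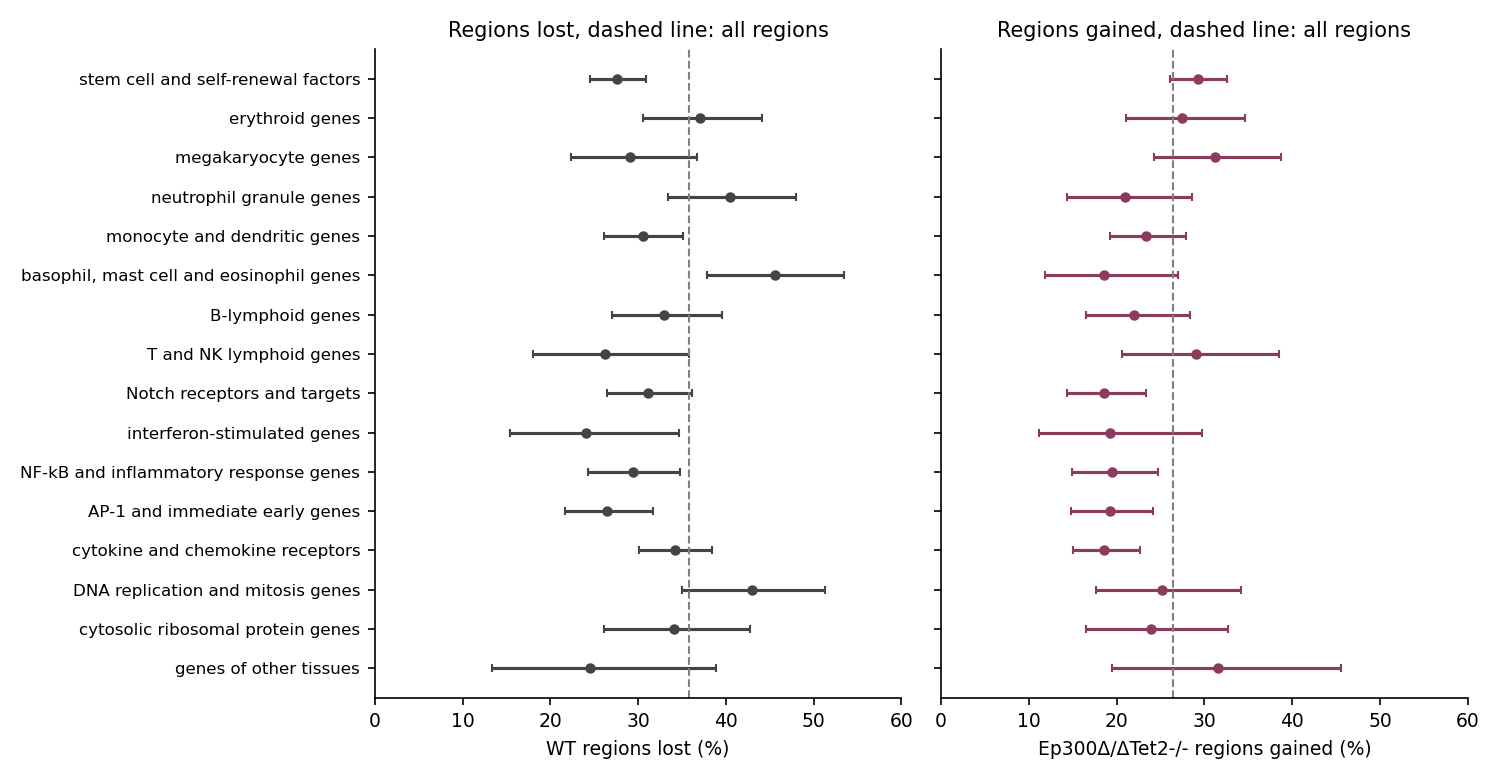
Share of WT H3K4me1 regions lost (left) and of double-deficient regions gained (right) for 16 gene lists (x axis, %), with exact 95% counting intervals and, dashed, the share of all regions (35.8% and 26.4%). Basophil, mast cell and eosinophil genes stand highest for loss at 45.6%, and that list, cytokine receptors and Notch genes lowest for gain at 18.6%.

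The genes with the largest share of regions lost had nearly none left in double-deficient cells. They were chosen by that share, so their WT and double-deficient values are a description. The 8 genes held 91 peaks in WT and 7 in double-deficient cells, and 32 and 44 in the Ep300Δ/Δ and Tet2-/- lists. Vcam1, the adhesion molecule that retains progenitors in the marrow (chromosome 3, 116109949 to 116129688), had 15 peaks in WT, 1 in Ep300Δ/Δ, 11 in Tet2-/- and 1 in double-deficient cells. Xrcc5, which encodes the DNA repair protein Ku80, had 11, 0, 7 and 0. Ednra, an endothelin receptor, had 11, 0, 5 and 1. At these genes and at Ear6 the Ep300Δ/Δ list held at most 1 peak.

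The others did not all follow p300. Ehd3, a protein of endocytic recycling, had 11 peaks in WT, 12 in Ep300Δ/Δ, 1 in Tet2-/- and 1 in double-deficient cells. Mkrn1, a ubiquitin ligase, had 11, 8, 3 and 1. Here the Tet2-/- list held the fewest peaks of the single lists. Dnaaf1 had 11, 5, 6 and 1 and the peptide transporter Slc15a1 11, 6, 5 and 1, so that both single lists lay between WT and double-deficient cells. At a −log10 q of at least 5 the counts were 8, 2, 4 and 1 at Dnaaf1 and 7, 1, 3 and 1 at Slc15a1, where the Ep300Δ/Δ list then equalled the double-deficient one. Mkrn1 then had 7, 2, 1 and 1 and Ehd3 6, 3, 0 and 1.

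The genes with the largest share gained were Bod1, Camk1g, Fam171a1, Mccc2, Plxna4, Ccdc121, Mycn and Epha4. They held 28 peaks in WT, 49 in Ep300Δ/Δ, 72 in Tet2-/- and 94 in double-deficient cells, and 34 of their 72 gained regions were in the Tet2-/- list and 20 in the Ep300Δ/Δ list, where all gained regions had 48.2% and 39.8%. Mycn, a relative of Myc that acts in stem cells, had 5, 9, 13 and 15 peaks. Epha4, an ephrin receptor, had 6, 7, 16 and 17, and Bod1, which acts in chromosome alignment, had 2, 1, 7 and 9. At both, the Tet2-null lists stood above the lists with Tet2. At the stricter threshold, a −log10 q of at least 5, this held at Bod1, with 1, 0, 5 and 3 peaks, but not at Epha4, with 3, 0, 10 and 3. Plxna4, a semaphorin receptor, had 5, 10, 13 and 15 peaks and Mccc2, a carboxylase subunit of leucine breakdown, 3, 11, 9 and 11, with all deficient lists above WT. At the stricter threshold Plxna4 had 3, 2, 9 and 6, so the Ep300Δ/Δ list was no longer above WT. Ccdc121 had 3, 3, 2 and 10, and its 8 gained regions were in neither single list, while at the stricter threshold it gained 2. Camk1g had 2, 3, 6 and 8 and Fam171a1 2, 5, 6 and 9. Arid1b, a subunit of the BAF remodelling complex that was added for having the most gained regions, gained 38 and lost 8, with 75, 89, 93 and 99 peaks. At the same threshold it gained 16 and lost 12.

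Changed regions sometimes formed runs of neighbours, with starts within 10 kb of the previous end and no other class between. In runs of at least 4 lay 3892 lost regions (10.8%) and 575 gained regions (2.48%). The longest lost run spanned chr2:173107029-173134807 at Ctcfl, which encodes a testis-enriched relative of CTCF, and held 13 regions over 27.8 kb. None of the 13 had a peak in the Ep300Δ/Δ list and 7 had one in the Tet2-/- list. The next runs, of 11 regions each, lay near Ehf, Tgfbr3 and Galnt1. At Ehf, 0 of 11 regions were in the Ep300Δ/Δ list and 4 in the Tet2-/- list. At Tgfbr3, a coreceptor for TGF-beta, 1 and 2 were. A run of 10 regions at Chd7, 1 of several of that length, had 0 and 7.

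The longest gained run lay in Mylk, the myosin light chain kinase gene, at chr16:34937561-34963836, with 12 regions over 26.3 kb. Of the 12, 10 were present in the Tet2-/- list and 4 in the Ep300Δ/Δ list. It was followed by a run of 7 regions between Tmed10 and Nek9, of which 5 were in the Ep300Δ/Δ list and 3 in the Tet2-/- list. Runs of 6 near Camk1g, Rin2 and Ncoa3 completed the set, of which 0, 0 and 4 regions were in the Ep300Δ/Δ list and 1, 1 and 3 in the Tet2-/- list.

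By fold enrichment the top lost regions lay near Creb5 (13.05), Bmp2 (12.42), Notch2 (12.19) and Lpl (11.68), followed by regions near Maea and Spata48 at 11.41. The Creb5 region lies 126 kb from the nearest coding start, and Creb5 encodes a CREB-family factor. The first 4 of these and the Spata48 region had a peak in both single lists, and the Maea region in the Tet2-/- list only. The Notch2 region also had an H3K27ac peak in WT cells and in no other genotype. The top gained regions lay near Slain1 (12.38), Snx29 (12.23), Zfp438 (11.80), Ahcyl2 (11.71) and Tbc1d1 (11.48). All but the Ahcyl2 region, which was in the Tet2-/- list only, had a peak in both single lists.

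The 10 letter motifs were counted within 100 bp of each summit, on both strands. The motif of GATA factors, spelled AGATAA, was found at 8.19% of lost and 6.95% of retained WT summits, and at 7.39% of all WT summits. Within 250 bp the shares were 26.3% and 22.8%. IRF (GAAANNGAA), whose GAA letters can overlap an ETS match, was at 5.35% of gained and 4.38% of retained double-deficient summits and at 4.64% of all, and within 250 bp at 17.1% and 14.8%. The ETS motif of PU.1 (GAGGAAGT) was at 2.85% of gained and 2.03% of retained summits and at 2.25% of all, but within 250 bp the shares were 7.23% and 7.05%. NF-kB (GGGANTTCC) was at 0.708% of lost, 0.95% of retained and 0.864% of all WT summits. For CEBP (TTGCNNAA) the shares were 7.59% of lost and 6.70% of retained summits, and for RUNX (TGTGGTT) 5.96% of gained and 5.23% of retained summits. AP-1 (TGANTCA), at 5.81% of lost and 5.79% of retained summits, was alike in both. MYB (AACNGTT) was at 2.92% and 2.64%, CREB (TGACGTCA) at 0.200% and 0.207% and CTCF (CCACNAGGG) at 0.975% and 1.13% of lost and retained summits. Mean GC content around summits was 51.5% for lost, 51.5% for gained and 53.1% for retained WT summits, and its part in these differences was not tested.

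Where a region was retained, its rank in strength was loosely shared between the lists. Spearman's rho of fold enrichment over the 64621 retained regions was 0.34, a value across regions of 2 libraries and with no test. Of them, 22.0% moved up and 21.8% moved down by over 25 percentile points. The lowest gene median was at Hey1 (-36.7), a target of Notch, and the highest at Tspan13 (49.5).

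By chromosome, the lost share ranged from 31.1% to 39.3% and the gained share from 23.3% to 29.8% over the 19 autosomes. On chromosome X they were 41.9% (451 of 1077) and 42.0% (453 of 1079, interval 39.0% to 45.0%). Of the X-linked gained regions, 21 lay nearest to Bcor, which also lost 20. No H3K4me1 list had a peak on chromosome Y, but the H3K4me3 lists had 7 there in WT, 1 in Ep300Δ/Δ, 7 in Tet2-/- and 6 in double-deficient cells. The methods of the study state that animals of both sexes were used. The labels do not give the sex behind each library, and its part in the X-linked values was not tested. On autosomes alone, 35.7% of WT regions were lost and 26.2% of double-deficient regions gained.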

How the data were processed

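ChIP was performed on Lin- bone marrow cells, with 1 library per genotype and mark, and 12 of the 20 samples had a peak list. The peaks had been trimmed with Cutadapt 1.15, aligned to mm10 with BWA 0.7.13, deduplicated with Picard and called with MACS2 2.1.1.20160309 against histone H3, per the labels and the methods of the study, which also kept peaks found in both pseudo-replicates and removed blacklisted regions. Sources differ on single or paired reads. The sample titles write the mark as H3Kme1. The deposited lists give each peak a position, a fold enrichment (a ratio), and −log10 p and −log10 q values. The stated limit of q was 0.05, but 1.79%, 4.82%, 0.532% and 2.84% of the WT, Ep300Δ/Δ, Tet2-/- and Ep300Δ/ΔTet2-/- H3K4me1 peaks exceed it. A Drosophila spike-in was added in the study. Whether the lists reflect it is not given in the sources used here.

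Lists were merged and classed with pandas 2.3.3 and numpy 2.4.6 (Python 3.11.15), intervals came from scipy 1.17.1 and bases were read with pysam 0.24.0, and fold values were compared within a list only. Every class was checked against bedtools 2.31.1, with 0 lost and 0 gained regions differing, and 6000 simulated regions were given their class. Transcript starts, exons and genes came from GENCODE M21 and bases from GRCm38.p6. Promoter regions lay within 3000 bp of a start. Named genes were Ep300, Tet2, the 3 most changed of each of 16 lists, the 8 with the largest share lost or gained among genes with at least 10 regions, the 5 strongest regions and the 5 longest runs of each class. The values at the same fold enrichment average the shares of all regions in the same decile of their list. The regions, gene lists, motifs and markers were chosen with earlier results of these data known. Motif letters were searched in the reference, both strands. The 8 samples without a list were not analysed here, and some genes that the rule names are not reported here. Shares have exact Clopper-Pearson 95% intervals. No test was run, since each group had 1 library. The alternatives tried are other overlaps, thresholds and list lengths, promoter and motif windows and gene assignment.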

Additional observations from a re-analysis of the deposited data

How the results depend on the processing

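With 1 library per genotype no replicate could be left out. No paired analysis was possible because each genotype had 1 library and 1 replicate number. Restriction to autosomes moved none of the 6 main values beyond its interval, or a count by over 1.5 times. Where regions had to be covered by at least 50%, lost regions were absent from the Ep300Δ/Δ list in 70.6% and gained regions present in it in 38.1%. Joining peaks within 500 bp gave 19414 lost and 14012 gained regions, absent from the Ep300Δ/Δ and Tet2-/- lists in 67.0% and 54.2% and present in the Ep300Δ/Δ list in 41.6%. With −log10 q of at least 5, 14948 regions were gained, the losses were absent from the Ep300Δ/Δ and Tet2-/- lists in 77.1% and 42.0%, and the gains present in 28.4% and 60.4%. Of the 35978 retained regions, 10776 were then absent from the Ep300Δ/Δ list and 8.06% from the Tet2-/- list, against 16.7% and 11.0% of retained regions in the deposited lists. With equal numbers of peaks the shares were 65.0%, 53.6% and, in the Ep300Δ/Δ list, 45.0%. From peaks above the median fold alone, 11730 regions were lost and 7522 gained, with losses absent in 61.9% and 43.9% and gains present in 49.0% and 58.6%. In each alternative, lost regions were absent from the Ep300Δ/Δ list more often than from the Tet2-/- list, and gained regions present in the Tet2-/- list more often. Retained regions had the same order in each alternative, so it is not particular to changed regions. A promoter window of 1000 bp held 18.5% of lost, 24.7% of gained and 31.4% of retained regions. Giving regions to the nearest gene of any type moved 2 of 32 gene list shares beyond their intervals. Lists cut at −log10 q of 5 moved 13 and lists of equal length 8 of them, and these 2 alternatives were chosen after seeing the data. The cause of these shifts was not tested. Peak lists record calls, not amounts, so a region called lost may carry signal below the threshold, and read depth, which sets that threshold, is unknown here.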
